A study of Mus musculus with 18 samples.

Results

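Ccl2, Ccl4 and Ccl5 are CC chemokine genes, whose products draw monocytes, T cells and other leukocytes to sites of inflammation. Their transcripts were followed in RAW264.7, an established line of mouse macrophage-like cells, by poly(A)-selected, strand-specific RNA sequencing of 18 samples in 6 groups of 3. The genes were taken by symbol from the authors' deposited table of Cuffdiff comparisons, which gave 3 genes with 1 transcript entry each, out of 5455 named genes and 7315 entries, and 27 of the 34824 rows between these groups. The entry of Ccl5 also carries the name of an assembled locus beside the symbol.

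Of the parental groups 1 was left untreated and 1 received doxycycline at 100 ng/mL. Construct cells, the remaining 4 groups, carry the lentiviral vector pINDUCER20-mCITED1 (p2080 in the labels). Doxycycline switches on mouse CITED1 from it, a co-regulator that acts on transcription through other DNA-bound factors. The construct cells were left untreated, given doxycycline at 100 ng/mL, given murine interferon-gamma (IFN-γ) at 200 U/mL, or given both. The labels say neither how long the treatments lasted nor whether the construct cells are a clone or a pool, and no parental group received IFN-γ. Whether the 3 samples per group are separate cultures is not said either, so the authors' q-values may measure only technical spread.

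CC chemokines are small secreted proteins named for a pair of adjacent cysteines near the amino terminus. CCL2 (MCP-1) acts through CCR2 and recruits monocytes. CCL4 (MIP-1β) and CCL5 (RANTES), whose receptors include CCR1 and CCR3 for CCL5, attract T cells and monocytes. In macrophages, transcription of these genes is known to respond to NF-kB and, for Ccl5, to interferon regulatory factors. IFN-γ is the main macrophage-activating cytokine and signals through the JAK-STAT pathway.

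The members share the encoded cysteine pair that gives the family its name, with TGCTGC in Ccl2 and Ccl5 and TGCTGT in Ccl4. The stretches below are coding sequence of the 3 entries from GENCODE M21, matched by transcript identifier, each with 24 bases before and 30 bases after the cysteine codons, which are in capitals.
Ccl2: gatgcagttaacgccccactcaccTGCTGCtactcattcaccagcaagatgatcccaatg
Ccl4: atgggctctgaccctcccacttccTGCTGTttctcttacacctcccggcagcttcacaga
Ccl5: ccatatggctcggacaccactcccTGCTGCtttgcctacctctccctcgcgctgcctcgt

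The codon pair starts at base 100 of the coding sequence in Ccl2 and Ccl4 and at base 97 in Ccl5. Each transcript has 3 exons, and the coding sequence with its stop codon is 447 bases in Ccl2, 279 in Ccl4 and 276 in Ccl5. In global alignments the coding sequence of Ccl2 was, over aligned bases, 67.4% identical to that of Ccl4 and 65.3% to that of Ccl5, and those of Ccl4 and Ccl5 were 59.4% identical. Closer relatives were Ccl7 for Ccl2 (69.4%) and Ccl3 for Ccl4 (70.0%), so none of these 8 CC ligand transcripts is a near-identical copy of another.

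All 3 genes lie on chromosome 11 in the GENCODE M21 annotation of GRCm38. Ccl2 stands next to Ccl7, Ccl11 and Ccl12. Ccl4 stands next to Ccl3, with Ccl6 beyond it, and Ccl5 next to Ccl9 and Ccl6. No coordinates are printed, since the authors' build is not given in the sources used here. Ccl2 overlaps the predicted gene Gm17268. Whether the authors' counting used strand is not given, so reads of these 2 genes might not be told apart. The AU-rich pentamer ATTTA, searched on the transcript strand with overlaps allowed, occurs 1 time in the 3′ UTR of Ccl2, 2 times in that of Ccl4 and 0 times in that of Ccl5. Among annotated 3′ UTRs within 20% of the same length, 32.8%, 35.5% and 23.3% hold at least 1 copy.

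The deposited table gives 1 fold change, 1 FPKM total and 1 q-value for each pair of groups, and no values per sample. FPKM values correct fragment counts for transcript length and for library size. Group levels were rebuilt from the fold and the total, and carry no SD. Only changes of 2-fold or more whose q reaches 0.05 at most have a row, so a missing row does not show that a gene was unchanged. Such a row is the authors' call, and "higher" or "lower" is used below for calls. Sequencing depth cannot be read from the table. In these bulk samples fewer cells that make a transcript and less RNA per cell cannot be told apart.

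Ccl2 stood at a rebuilt FPKM of 25.7 in untreated and 21.8 in doxycycline-treated parental cells. In construct cells it stood at 11.0 untreated, 16.0 with doxycycline, 41.2 with IFN-γ and 95.5 with both. Its 2 highest groups are thus the 2 that received IFN-γ, and untreated construct cells had the lowest level. In the order of levels, the step from IFN-γ alone to both treatments is the only step between neighbouring groups with a row in the table.

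Ccl4 was the most abundant of the 3 in each of the 6 groups, and FPKM, being scaled by length, allows that comparison. Its rebuilt FPKM was 208 in untreated and 161 in doxycycline-treated parental cells. In construct cells it was 90.6 untreated, 73.4 with doxycycline, 193 with IFN-γ and 482 with both. Construct cells given IFN-γ alone therefore had a Ccl4 level close to that of untreated parental cells, a ratio of 0.92 with no row. The step from untreated parental cells to both treatments is the only step between neighbouring groups in this order with a row.

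Ccl5 was the least abundant of the 3 in each group. Its rebuilt FPKM was 7.40 in untreated and 3.91 in doxycycline-treated parental cells. In construct cells it was 6.42 untreated, 8.18 with doxycycline, 36.8 with IFN-γ and 52.9 with both. The 4 groups without IFN-γ thus lie low and the 2 with it high, and the step between these sets, from doxycycline to IFN-γ alone in construct cells, is the only neighbouring step with a row.

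**Figure D1:**
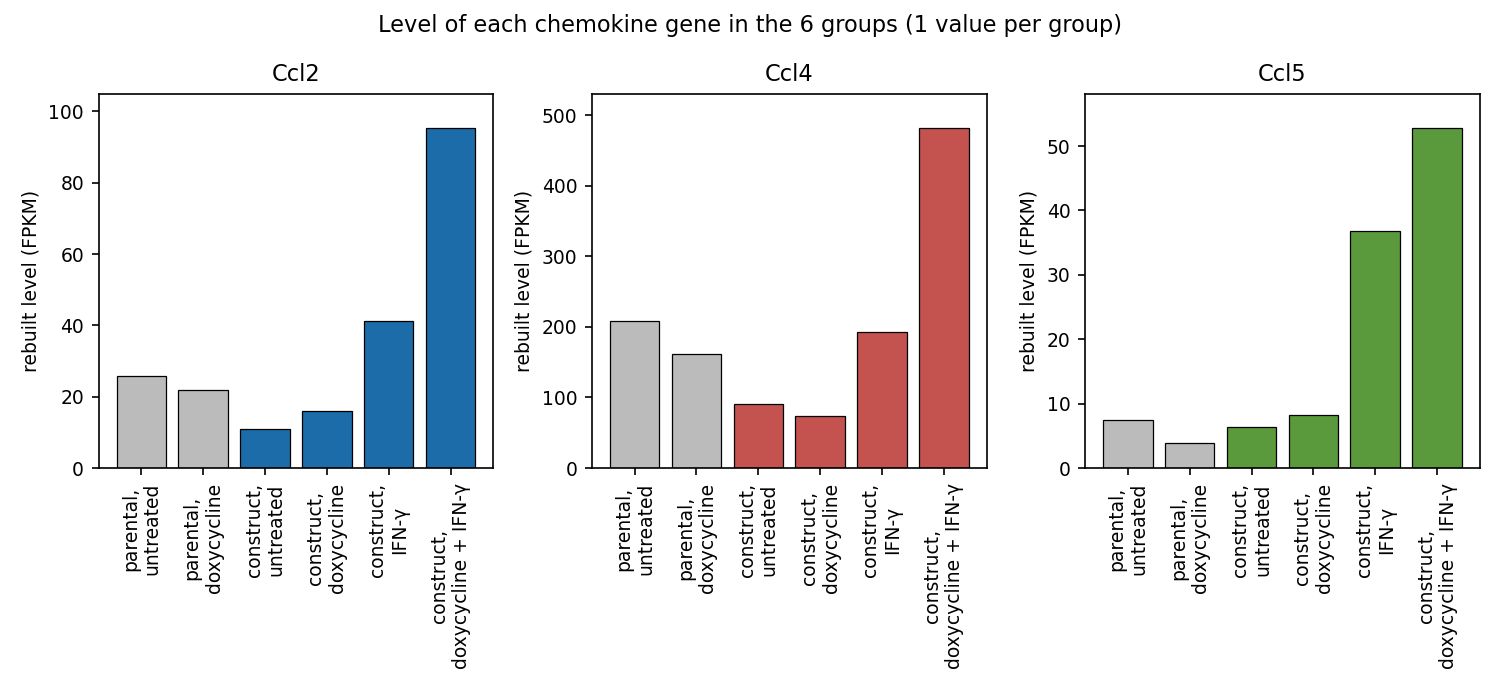
Rebuilt FPKM (vertical axis, linear and different for each gene) of Ccl2, Ccl4 and Ccl5 in the 6 groups, with parental groups in grey and construct groups in colour; each bar is 1 group value without an error. All 3 genes are highest in construct cells given both treatments, at 95.5, 482 and 52.9 FPKM.

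The ratios between the 3 levels differed by group. The ratio of the Ccl4 level to the Ccl5 level was 41.2 in doxycycline-treated parental cells and 5.23 in construct cells given IFN-γ. The ratio of the Ccl4 level to the Ccl2 level ranged less, from 4.58 in construct cells with doxycycline to 8.22 in untreated construct cells. Between its lowest and highest group Ccl2 spanned 8.65-fold, Ccl4 6.57-fold and Ccl5 13.5-fold. Of the 15 pairs of groups, Ccl2 has a row in 8, Ccl4 in 10 and Ccl5 in 9. These pairs share groups and are not independent of each other.

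IFN-γ without the inducer was followed by higher levels of all 3 genes. In the authors' deposited table Ccl5 was 5.74-fold, Ccl2 3.73-fold and Ccl4 2.12-fold higher than in untreated construct cells. Each had the smallest q of the table, 0.000387, which 71.8% of the rows between these groups share. Of the 5455 genes with any row, 25.7% were called higher in this comparison. Of the 1404 genes called higher, 276 had a larger fold than Ccl5, 502 than Ccl2 and 1229 than Ccl4, and their median fold was 2.9. Rebuilt levels of listed entries had a median log2 ratio of 0.65 here. These entries are listed because they passed the table's limits in some pair, so their median cannot be read as a library scale. Genes called lower numbered 1334. Relative to the median of listed entries Ccl5 was 3.67-fold and Ccl2 2.38-fold higher, and Ccl4 was 1.35-fold higher, below the 2-fold limit.

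When CITED1 was induced, the 3 genes were higher with IFN-γ by similar folds. The authors' deposited table gives 6.57-fold for Ccl4, 6.46-fold for Ccl5 and 5.96-fold for Ccl2 over doxycycline alone, each with a q of 0.000387. The share of genes called higher was 33.7%, with a median fold of 3.15, and 330, 336 and 368 of the 1837 genes had a larger fold than Ccl4, Ccl5 and Ccl2. The median log2 ratio of listed entries was 1.02, and relative to it the folds were 3.25 for Ccl4, 3.19 for Ccl5 and 2.95 for Ccl2. The rank of the genes by fold thus was Ccl5, Ccl2, Ccl4 without the inducer and Ccl4, Ccl5, Ccl2 with it. Whether the response to IFN-γ differed between these states was not tested, since the table holds no values per sample.

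**Figure D2:**
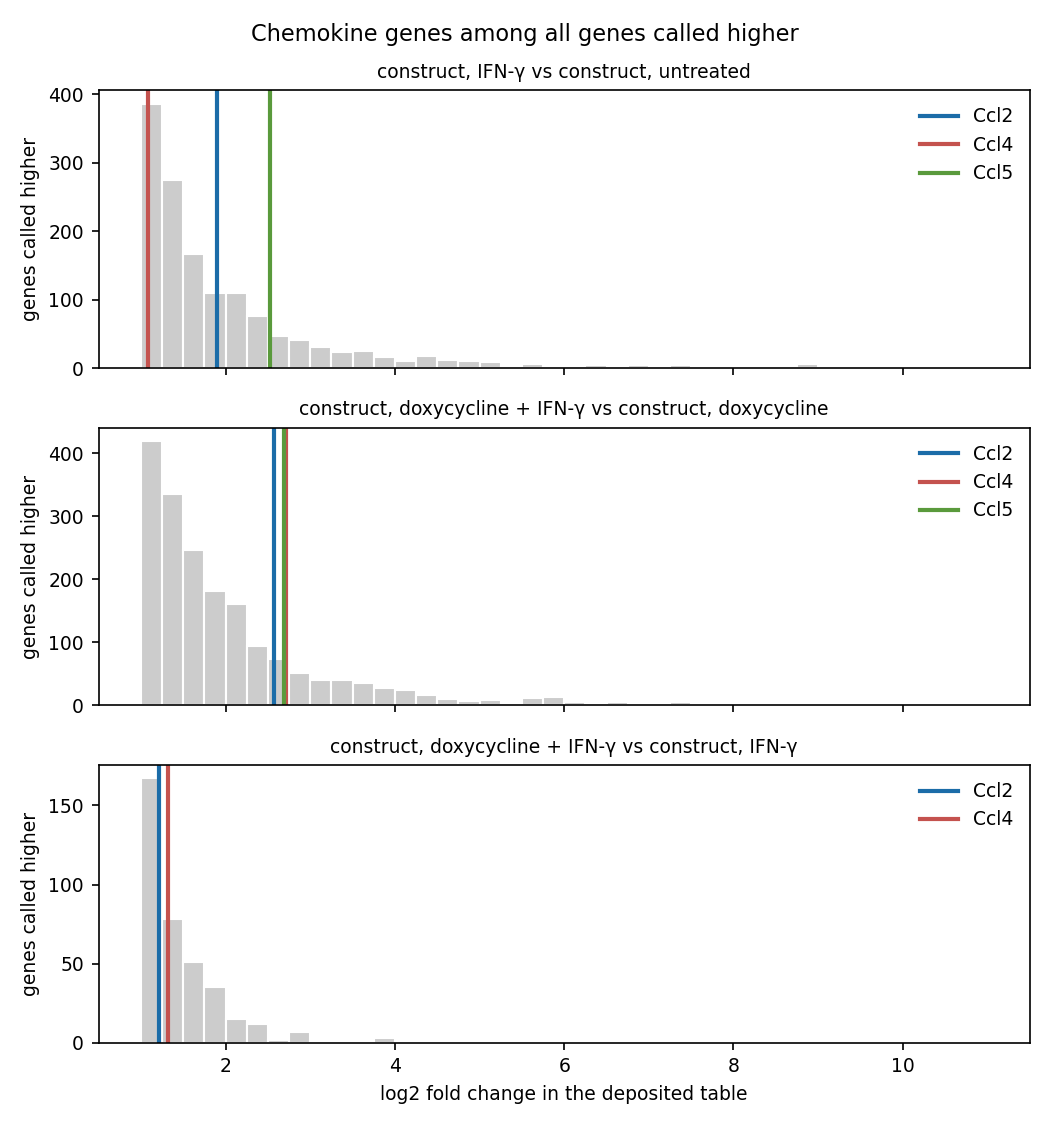
Number of genes called higher (vertical axis) by log2 fold change in the authors' deposited table (horizontal axis) for 3 comparisons in construct cells, with coloured lines at Ccl2, Ccl4 and Ccl5. With IFN-γ alone the 3 lines lie apart, at log2 values of 1.08 to 2.52, and with IFN-γ in induced cells they lie together, at 2.58 to 2.72; Ccl5 has no row in the lowest panel.

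With CITED1 induced in IFN-γ-treated cells, Ccl2 and Ccl4 passed the table's limit and Ccl5 did not, a difference between genes that was not tested. Cited1 itself was 7.55-fold higher with both treatments than with IFN-γ alone in the authors' deposited table, from 11.5 to 86.7 rebuilt FPKM. In the same comparison of the authors' deposited table Ccl4 was 2.5-fold and Ccl2 2.32-fold higher, each with a q of 0.000387. Ccl5 has no row, and its rebuilt levels of 36.8 and 52.9 FPKM give a ratio of 1.44. Of the 5455 genes 6.84% were called higher. The folds of Ccl4 and Ccl2 lie near the median of 2.46 of those 373 genes, with 176 and 225 genes above them. The median log2 ratio of listed entries was 0.10, and relative to it Ccl4 was 2.33-fold and Ccl2 2.16-fold higher. Cited1 was already 16.3-fold higher with IFN-γ alone than in untreated construct cells in the authors' deposited table, so the group without inducer is not free of the transcript.

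Without IFN-γ the same inducer gave no call for any of the 3 genes. Doxycycline over no doxycycline gave a ratio of rebuilt levels of 1.45 for Ccl2, 1.27 for Ccl5 and 0.81 for Ccl4. Cited1 was 239-fold higher there in the authors' deposited table. In that comparison 0.403% of the 5455 genes were called in either direction. Cited1 stood at 168 rebuilt FPKM with doxycycline alone and at 86.7 with both treatments, a pair without a row. For Ccl4 the ratio with IFN-γ was 3.09 times the ratio without it, for Ccl2 1.60 times and for Ccl5 1.13 times. These are ratios of group values without an error, and the difference between the states was not tested.

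**Figure D3:**
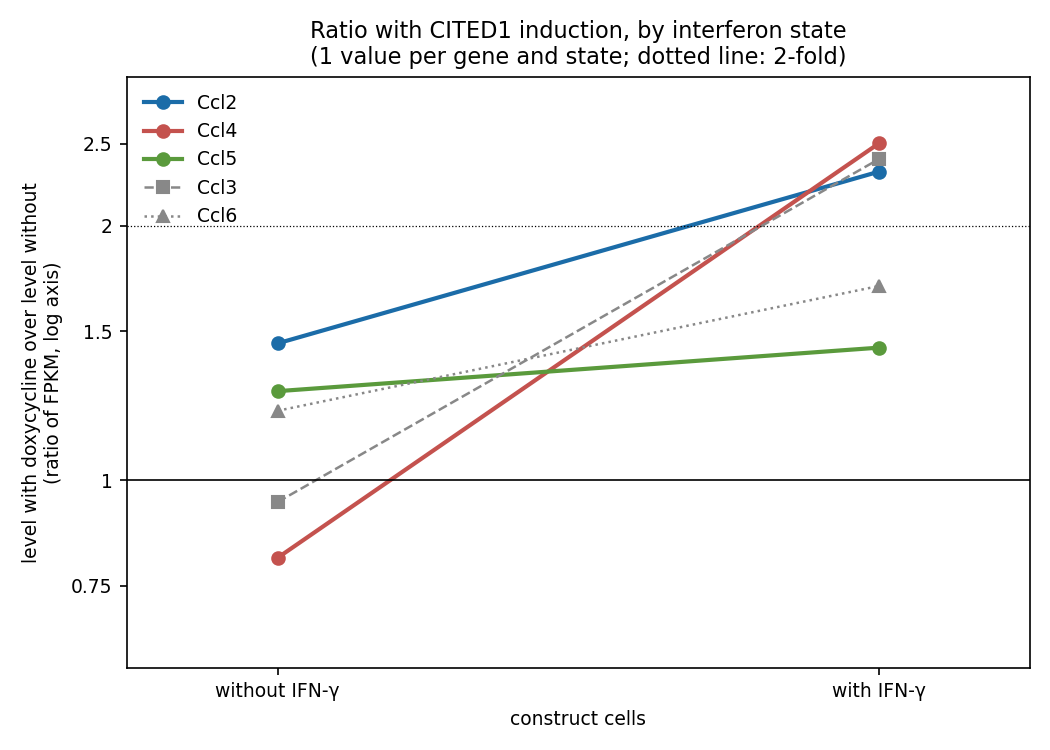
Level with doxycycline divided by the level without it in construct cells (vertical axis, ratio of rebuilt FPKM on a log axis), without and with IFN-γ, for Ccl2, Ccl4 and Ccl5 (coloured, solid) and for Ccl3 and Ccl6 (grey, dashed and dotted); each point is 1 ratio of group values and the dotted horizontal line is 2-fold. Ccl4 goes from 0.81 to 2.5 and Ccl3 from 0.94 to 2.4, while Ccl5 stays at 1.27 and 1.44.

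Doxycycline in parental cells, the control for the inducer itself, gave no call either, with 0.898% of genes called in either direction. The ratios of rebuilt levels were 0.85 for Ccl2 and 0.77 for Ccl4. For Ccl5 the ratio was 0.53, from 7.40 to 3.91 rebuilt FPKM, which is 1.89-fold and just under the limit. Parental cells were not given IFN-γ, so a part of the inducer in the IFN-γ-treated groups cannot be told apart from that of CITED1.

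The construct cells differed from the parental cells before any treatment. In the authors' deposited table Ccl2 was 2.33-fold and Ccl4 2.3-fold lower in untreated construct cells, each with a q of 0.000387, and 2.77% of genes were called lower. Ccl5 has no row there, at a ratio of 0.87. With doxycycline in both lines Ccl4 was 2.2-fold lower in the authors' deposited table, where 3.17% of genes were called lower, and Ccl2 has no row, at a ratio of 0.74. Ccl5 went the other way, 2.09-fold higher in the authors' deposited table with a q of 0.00829, where 2.44% of genes were called higher. With a pseudocount of 1 FPKM that last fold is 1.87, and it is read against the lowest Ccl5 level of the 6 groups, 3.91 FPKM.

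Of the macrophage markers with levels in both lines, Adgre1 differed by line. Adgre1, the gene of the macrophage marker F4/80, stood at 28.6 and 32.6 rebuilt FPKM in untreated and doxycycline-treated parental cells and at 12.2 and 13.9 in the matching construct cells. It stood at 7.10 with IFN-γ and 5.03 with both treatments, and Cd68 at 661 with doxycycline, 296 with IFN-γ and 255 with both. Fcgr1, the gene of a high-affinity IgG receptor, went the other way, from 14.1 in untreated construct cells to 87.5 with IFN-γ and 274 with both, and stood at 17.8 and 16.6 in parental cells. Ptprc, the gene of the leukocyte antigen CD45, stood at 47.7 and 50.9 rebuilt FPKM in untreated and doxycycline-treated parental cells and at 50.8 and 54.9 in the matching construct cells, in its most abundant entry. It stood at 111 with IFN-γ and 164 with both. Of the 9 macrophage markers, 5 have a row (Adgre1, Cd68, Fcgr1, Itgam and Ptprc), and a summed level over the list cannot be given because several have no level in some groups. Of the markers of other cells, only the T-cell kinase gene Lck of 5 T-cell genes has a row, with 0.458 to 3.18 rebuilt FPKM, and 0 of 4 B-cell, 0 of 4 fibroblast and 0 of 4 epithelial genes. A marker without a row may be absent or unchanged. The part of these shifts in the chemokine levels was not tested.

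Against untreated parental cells, the construct cells given both treatments were higher for each gene in the authors' deposited table, at 7.15-fold for Ccl5, 3.72-fold for Ccl2 and 2.32-fold for Ccl4. There 34.0% of genes were called higher. Construct cells given IFN-γ alone were 4.98-fold higher for Ccl5 in the authors' deposited table, with 26.4% of genes called higher. Ccl2, at a ratio of 1.60, and Ccl4, at 0.92, have no row in that pair. These pairs differ in line as well as treatment, so their ratios do not give the size of an IFN-γ response. No parental group received IFN-γ.

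The remaining pairs of groups cross treatment with line or differ in both treatments. Both treatments over none in construct cells gave 8.65-fold for Ccl2, 8.23-fold for Ccl5 and 5.32-fold for Ccl4 in the authors' deposited table, with 33.8% of genes called higher. IFN-γ alone over doxycycline alone gave 4.5-fold for Ccl5, 2.62-fold for Ccl4 and 2.57-fold for Ccl2 in the authors' deposited table, with 25.7% of genes called higher. Measured from doxycycline-treated parental cells, where Ccl5 is lowest, its folds were the largest in the authors' deposited table, 13.51 with both treatments (33.0% of genes called higher) and 9.41 with IFN-γ alone (26.1%). With both treatments Ccl2 was 4.38-fold and Ccl4 2.99-fold higher than in those cells in the authors' deposited table, and with IFN-γ alone neither has a row. Ccl4 was 2.84-fold lower in doxycycline-treated construct cells than in untreated parental cells in the authors' deposited table, where 3.98% of genes were called lower. Untreated construct cells against doxycycline-treated parental cells, with 4.09% of genes called in either direction, gave no row for any of the 3.

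The rest of the CC family was read from a list of 21 ligand genes, of which 8 have a row in any comparison. With IFN-γ alone 5 of these 8 were higher and 0 lower, the 3 members among them, beside 25.7% of the 5455 genes with any row. Ligands without a row lie outside that background, and the difference in share was not tested. The 5 had a median log2 fold of 2.52, beside 1.54 for the 1404 genes called higher. Ccl22, a ligand of CCR4, went from 0.0648 to 71.2 rebuilt FPKM, and Ccl6, a macrophage ligand of CCR1, from 1.35 to 26.4. Ccl3 (MIP-1α), the neighbour and close relative of Ccl4, has no row there, with 206 rebuilt FPKM untreated and 210 with IFN-γ. At a ratio of 1.02 it lay below the 2.12-fold of Ccl4.

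Of the 5455 genes with any row 33.7% were called higher with IFN-γ in induced cells. Of the 8 ligands with any row 7 were higher and 0 lower, a difference in share that was not tested. Their median log2 fold was 2.72, beside 1.66 for the 1837 genes called higher. Beside the members these were Ccl22 (0.171 to 80.3 rebuilt FPKM), Ccl6 (1.63 to 44.9), Ccl7 (0.399 to 3.20) and Ccl3 (194 to 504). Ccl7 encodes MCP-3, another monocyte attractant that binds CCR2.

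With both treatments against IFN-γ alone 6.84% of genes with any row were called higher. Of the 8 ligands with any row 5 were higher and 0 lower there. Their median log2 fold was 1.21, below the 1.30 of the 373 genes called higher. They were Ccl2, Ccl4, Ccl3 (2.4-fold in the authors' deposited table), Ccl7 (2.18-fold) and Ccl9 (2-fold, the table's limit). With a pseudocount of 1 FPKM 3 of the 5 stayed at 2-fold or above. Ccl5, Ccl6 and Ccl22 were without a row, at ratios of 1.44, 1.70 and 1.13. Ccl22 and Ccl6 had larger folds than Ccl2 and Ccl4 with IFN-γ alone, and Ccl5 did too.

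Receptor genes were read from a list of 15, of which 4 have a row in any comparison. With IFN-γ alone 2 of these 4 were higher and 0 lower, beside 25.7% of genes with any row called higher. Ccr1, a receptor of CCL5 and CCL3, went from 1.14 to 13.0 rebuilt FPKM, and Ccrl2, an atypical receptor, from 0.621 to 24.1. With IFN-γ in induced cells 3 of the 4 were higher and 0 lower, beside 33.7% of genes with any row called higher. These shares rest on 4 genes, and their differences from the background were not tested. With IFN-γ in induced cells Ccr2, the receptor of CCL2, went from 0.583 to 4.11 rebuilt FPKM, Ccr1 from 1.31 to 13.5 and Ccrl2 from 0.495 to 52.9. With both treatments against IFN-γ alone 3 of the 4 were higher and 0 lower, beside 6.84% of genes with any row called higher. That count of 3 fell to 2 at a minimum of 1 FPKM, at a q of 0.01 or less, and with a pseudocount of 1 FPKM. Among the 3 called receptors Ccr2 was 2.66-fold and Ccrl2 2.2-fold higher in the authors' deposited table. That Ccr2 entry went from 1.54 to 4.11 rebuilt FPKM. Another, more abundant Ccr2 entry has no row in this pair, at 4.61 and 4.85 rebuilt FPKM and a ratio of 1.05. The q of the called Ccr2 entry in the authors' deposited table is 0.0458, near the limit. In its more abundant entry Ccrl2 was lower in construct than parental cells, 3.38-fold without doxycycline and 3.91-fold with it in the authors' deposited table. That entry went from 2.10 to 0.621 and from 1.94 to 0.495 rebuilt FPKM, and a pseudocount of 1 FPKM removed both calls. The other Ccrl2 entry has no row in either pair, at ratios of 1.37 and 0.73. Ccrl2 was the only called receptor in these 2 comparisons.

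**Figure D4:**
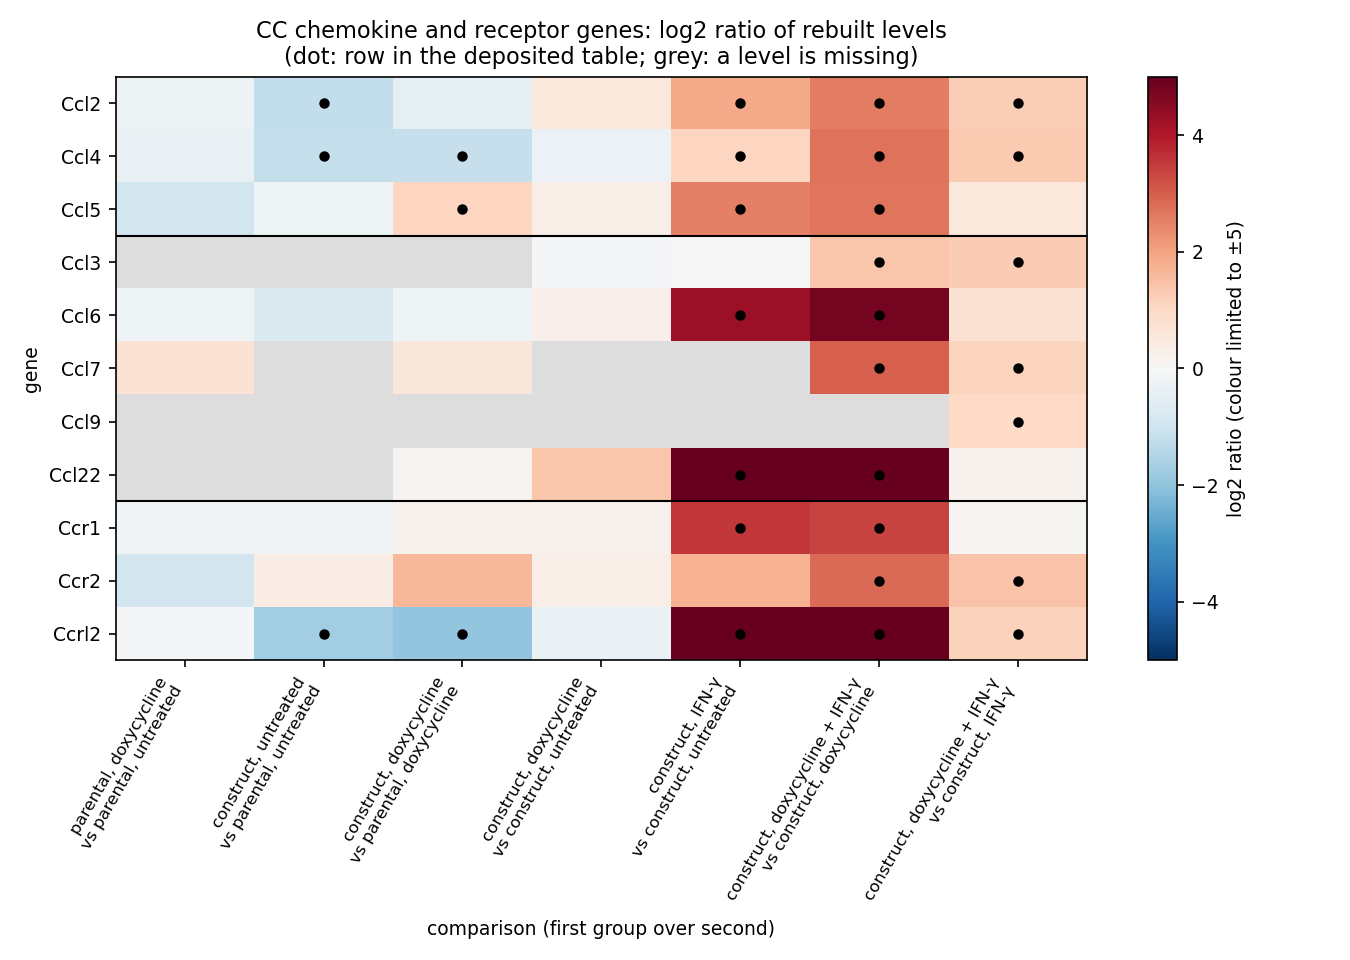
Log2 ratio of rebuilt FPKM (colour, limited to ±5) for 8 CC ligand and 3 CC receptor genes (rows) in 7 comparisons (columns), with a dot where the authors' deposited table has a row and grey where a level is missing. In the last column, both treatments over IFN-γ alone, dots stand at Ccl2, Ccl4, Ccl3, Ccl7 and Ccl9 and at Ccr2 and Ccrl2, but not at Ccl5. Each gene is shown by a single entry, and a more abundant Ccr2 entry has no row in that column.

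Chemokines and receptors of other classes went in mixed directions. With IFN-γ alone 25.7% of genes with any row were called higher and 24.5% lower. Of 17 other chemokine genes 3 have a row in any comparison, and 1 was higher and 1 lower with IFN-γ alone. Cxcl16 went from 23.0 to 124 rebuilt FPKM and Cxcl14 from 11.9 to 1.13. Cxcl2, a neutrophil attractant, was 2.73-fold higher with both treatments than with IFN-γ alone in the authors' deposited table, and 2.5-fold lower with doxycycline in the absence of IFN-γ. Of 9 other receptors 5 have a row in any comparison, and 1 was higher and 3 lower with IFN-γ alone. Xcr1 went from 0.0430 to 6.61, Cx3cr1 from 131 to 3.60, Cxcr4 from 8.02 to 0.564 and Cxcr3 from 9.10 to 1.88 rebuilt FPKM. Of these receptors only Xcr1 was called for both treatments against IFN-γ alone, 2.68-fold higher in the authors' deposited table. There 6.84% of genes with any row were called higher.

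Genes known to act on chemokine transcription and mRNA decay were read from 2 further lists. With IFN-γ alone 25.7% of genes with any row were called higher and 24.5% lower. Of 23 transcription factor genes 15 have a row in any comparison, and 12 were higher and 0 lower with IFN-γ alone. Their median log2 fold was 1.86, beside 1.54 for all genes called higher. Fosl1, an AP-1 subunit, went from 0.539 to 6.50 rebuilt FPKM, Stat2 from 10.0 to 114 and Irf7 from 24.8 to 187. Of 13 regulators of NF-kB or of AU-rich mRNA 9 have a row in any comparison. With IFN-γ alone 7 of these were higher and 2 lower. The signed median log2 fold of these called regulators was 1.65. Zfp36, the gene of tristetraprolin, which speeds decay of AU-rich mRNA, went from 11.2 to 140 rebuilt FPKM, and the NF-kB regulators Nfkbiz from 1.28 to 13.9 and Tnfaip3 from 5.59 to 29.3. Nfkbib went from 22.4 to 73.5 rebuilt FPKM.

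With both treatments against IFN-γ alone 1 of the 23 factor genes was higher, Fos, another AP-1 subunit, from 6.28 to 16.0 rebuilt FPKM. Of the 13 regulators 0 were called. Of genes with any row, which 15 of the 23 factor genes and 9 of the 13 regulators have, 6.84% were called higher in that comparison. Several entries, those of Irf7 and Stat2 among them, never have a row in which the doubly treated group takes part, so these counts cannot be compared with those for IFN-γ alone. Zfp36 has levels in both groups, 140 and 208 rebuilt FPKM, and no row.

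The genes most like each member were sought over all 6 groups, by the Euclidean distance of log2 levels centred on their mean, among 2434 other genes with a level in each group and at least 1 FPKM in one. For Ccl2 these were the ubiquitin ligase gene Arih1 (distance 0.47), Rab20 (0.48) and the peptide and histidine transporter gene Slc15a3 (0.54). For Ccl4 they were the nucleoside transporter gene Slc28a2 (0.24), its paralogue Slc28a2b (0.41), whose reads may be shared with it, and the Wnt receptor gene Fzd5 (0.52). For Ccl5 they were the pseudogene H2-T-ps (0.49), the cytokine receptor gene Crlf2 (0.60) and the exonuclease gene Trex1 (0.61).

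Slc28a2 had a rebuilt FPKM of 4.05 in untreated parental cells, 1.93 in untreated construct cells, 4.26 with IFN-γ and 10.4 with both, the same order as Ccl4 except that IFN-γ alone stood above untreated parental cells. Trex1, like Ccl5, stood low in the 4 groups without IFN-γ, at 26.8 to 38.1 rebuilt FPKM, and reached 173 with IFN-γ and 307 with both. Among the members themselves Ccl2 and Ccl4 lay closest, at a distance of 0.91, followed by Ccl2 and Ccl5 at 1.85 and Ccl4 and Ccl5 at 2.5. With the Pearson correlation over the same 6 groups as the measure, 1 of the 3 genes for Ccl2, 3 of 3 for Ccl4 and 0 of 3 for Ccl5 were the same.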

How the data were processed

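RNA from 18 samples in 6 groups was sequenced. Cuffdiff 2.2.1, edgeR, featureCounts, STAR 2.5.3a and FastQC 0.11.5 were used by the authors, per the submitters' processing notes, which give no roles. The deposited table gives, per the file headers, the fold change as a linear ratio, the FPKM of both groups as 1 total, and the q-value, a p-value adjusted by the authors. The sources used here do not give the build, the library scaling or the set of tests adjusted over. Of 112230 rows, 77406 name a group outside the samples used here and were left out.

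With a fold f, the lower group's level is the total over (1 + f) and the higher group's is f times as much. Levels are medians over the rows that name a group, and for the 3 members these rows differed by at most 0.232%. Names of assembled loci were dropped from gene names, 255 entries without and 36 with several names were left out of counts, and a gene's value is that of its called entry with the highest total. The background is the 5455 genes with any row, not all genes measured. Where the design foresaw tests on values per sample, none could be made, and the calls are the authors'.

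The members and lists were chosen with earlier results of these data known. Named are the members, Cited1, called CC ligands and receptors, up to 4 members of each other list with the largest folds with IFN-γ alone and with both treatments against IFN-γ alone, and the 3 genes most like each member, passing over Gm and Rik symbols. Some genes this rule would name are not reported here. The planned motif search in promoters was not run. Alternatives were a q of 0.01, a minimum of 1 FPKM, a pseudocount of 1 FPKM, rescaling to the median of listed entries, and counting entries. An alternative with gene names exactly as written was chosen after seeing the data. Level rebuilding, call counting and the search for like genes were tested on data simulated for both treatments against IFN-γ. Of 4000 genes 200 were changed, and 100% of these were recovered, with 0 unchanged genes called. All planted changes lay above the 2-fold limit, the noise was far smaller, and q was fixed. These counts were therefore set in advance and check only the code, not the authors' calls. Python 3.11.15, pandas 2.3.3 and numpy 2.4.6 were used.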

Additional observations from a re-analysis of the deposited data

How the results depend on the processing

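Every member call in the 7 comparisons kept its direction under each alternative, though only the rescaling could have changed a direction. Member levels rebuilt from different rows differed by at most 0.232%. With levels rescaled, Ccl4 with IFN-γ alone was 1.35-fold higher, under the 2-fold limit. The rescaling rests on entries that passed the table's limits and is not a correction of library scale. With a pseudocount of 1 FPKM, Ccl5 in construct against parental cells with doxycycline was 1.87-fold higher, which left 1 of 2 members, 1 of 2 CC ligands, 0 of 1 CC receptors and 1 of 4 genes of all 6 lists called there. The pseudocount also left 0 of 1 CC receptors called in untreated construct against parental cells, 0 of 1 genes of all lists for doxycycline in construct cells without IFN-γ, and 3 of 5 CC ligands for both treatments against IFN-γ alone. At a q of 0.01 or less, untreated construct against parental cells had 0 CC receptors and 2 of 4 genes of all lists called. With gene names exactly as written, which was added after seeing the data, Ccl5 matches no member, which left 1 of 2 members called in construct against parental cells with doxycycline. In the other rescaled, pseudocount and q results each member call stayed and the counts stayed within 1.5 times. The same held for all 33 results at a minimum of 1 FPKM and all 21 with entries counted. Some member folds moved further under rescaling, as for Ccl4 with IFN-γ in induced cells, from 6.57-fold to 3.25-fold. No paired analysis was possible because the table holds no values per sample, and leaving out a replicate was not run for the same reason. The table's 2-fold limit and its missing depth bound what can be said of Ccl5 between IFN-γ alone and both treatments.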
